A study of Mus musculus with 6 samples.

Results

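The matrix metalloproteases (MMPs), the ADAM and ADAMTS proteases and their tissue inhibitors (TIMPs) were examined in hepatic progenitor cells, immature liver epithelial cells that can form both hepatocytes and bile duct cells. Members were the probes whose deposited gene symbol began with Mmp or Adam and a digit, with Adamts, or with Timp1 to Timp4. This pattern used no measured value, but it was chosen with earlier results of these data known. It took 99 of the 25697 probes on the array, for 69 of 17893 genes. RNA came from such cells taken from control livers of C57BL/6 mice, 3 samples of genotype Met fl/fl and 3 of genotype Egfr fl/fl, each read on its own Illumina bead array. In both genotypes recombination sites flank the named receptor gene, Met for the hepatocyte growth factor receptor and Egfr for the epidermal growth factor receptor. The labels name no recombinase, age, treatment or isolation method, and do not tell whether replicates were different animals, different cultures or repeats of 1 extract. The p-values therefore set each difference only against the variation among these samples. That variation may be technical, and the p-values may then not extend to other animals.

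These proteases are zinc enzymes that work outside the cell. MMPs digest collagens, laminins and other matrix proteins, and the membrane-bound kinds do so at the cell surface. ADAMs sit in the membrane and cut the outer parts of other membrane proteins, among them the precursors of the ligands of the epidermal growth factor receptor. ADAMTS proteases are secreted and cut proteoglycans and procollagens, ADAMTS-like proteins lack the protease domain, and TIMPs block the active site of the proteases. In injured liver, progenitor cells spread together with a remodelled matrix, and much of the MMP and TIMP made there comes from stellate cells and macrophages.

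Between 43.8% and 45.3% of all probes were detected on each array, and the mean deposited intensity ran from 275 to 398 units on Met fl/fl arrays and from 241 to 321 units on Egfr fl/fl arrays. The number of arrays limits the precision of every value. Correlations over tested probes ran from 0.967 to 0.992 within a genotype and from 0.891 to 0.921 between genotypes. The array of Egfr fl/fl replicate 3 lay apart within its group, with a mean r of 0.969 to the other 2. Among the remaining arrays the lowest value was 0.986. There Egfr fl/fl replicates 1 and 2 entered only by their r with each other, so the 2 values are not like measures. Counts are therefore also given without it. The array held 14 of the listed biliary and progenitor markers. Of these, 11 were detected on all 3 Met fl/fl arrays and 9 on all 3 Egfr fl/fl arrays. Krt19 and Sox9 were detected on all 6. The summed normalized intensity of these 14 was 19072 to 21146 units in Met fl/fl and 30103 to 33403 units in Egfr fl/fl. Of the 11 that could be tested, 1 was higher and 5 lower in Met fl/fl at an adjusted p under 0.05, and 5 did not pass. Over all tested genes 22.8% were higher and 18.6% lower. Hepatocyte markers were partly present. Of 13 on the array, 7 were detected on 0 of 6 arrays, albumin among them. Ttr and Ass1 were detected on all 6, Ttr at a mean log2 of 11.64 for Met fl/fl against 11.31 for Egfr fl/fl. Only the Met fl/fl arrays, all 3 of them, detected Apoa1. Serpina1a and Serpina1c were detected by all 3 Egfr fl/fl arrays and by no other. No neutrophil or lymphocyte marker was detected on all arrays of either genotype. Of 10 endothelial markers, Kdr and Eng were each detected on all 3 Met fl/fl arrays and 1 Egfr fl/fl array. Neither passed an adjusted p of 0.05, and no endothelial marker was detected on all 3 Egfr fl/fl arrays. The probe of the floxed gene Met was detected on 0 Met fl/fl and 2 Egfr fl/fl arrays, and 3 of 4 Egfr probes on all 6, which checks no label since both groups are controls. No slide or scan date is given in the sources used here, so batch and genotype cannot be told apart.

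Most members were below detection in these cells. A probe counts as detected on an array where its detection p, the share of negative control probes that are brighter, is under 0.05, so that 5% of probes at the level of the negative controls would pass on any array. Of the 69 genes, 13 were detected on all 3 Met fl/fl arrays and 18 on all 3 Egfr fl/fl arrays, and 11 of these on all 6. As shares these are 18.8% and 26.1% of the members, against 42.8% and 42.5% of all genes. Another 9 genes were detected on some arrays but never on all 3 of a group, which at 1 or 2 arrays is hard to tell from background. The other 40 genes (58.0%, against 41.3% of all genes) were detected on 0 of 6 arrays. A missing signal from a single probe shows only that this probe did not exceed the negative controls.

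The 11 genes detected on all arrays were the matrix-degrading Mmp1a, Mmp14, Mmp17 and Mmp28, the sheddases Adam9, Adam15 and Adam17, the non-catalytic Adam23, the microfibril protein Adamtsl4 and the inhibitors Timp1 and Timp2. Detection on all 3 arrays of Met fl/fl and none of Egfr fl/fl was seen for Adam12 and Adam4. The reverse was seen for Adamts1, Adamts2 and Mmp11, which all 3 Egfr fl/fl arrays and no Met fl/fl array detected. Adamts7, Adamts15, Mmp24 and Timp3 were detected on all 3 Egfr fl/fl arrays and on 1 or 2 Met fl/fl arrays. By class, 0 of 14 ADAMTS genes were detected on all Met fl/fl arrays and 4 of 14 on all Egfr fl/fl arrays.

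**Figure D1:**
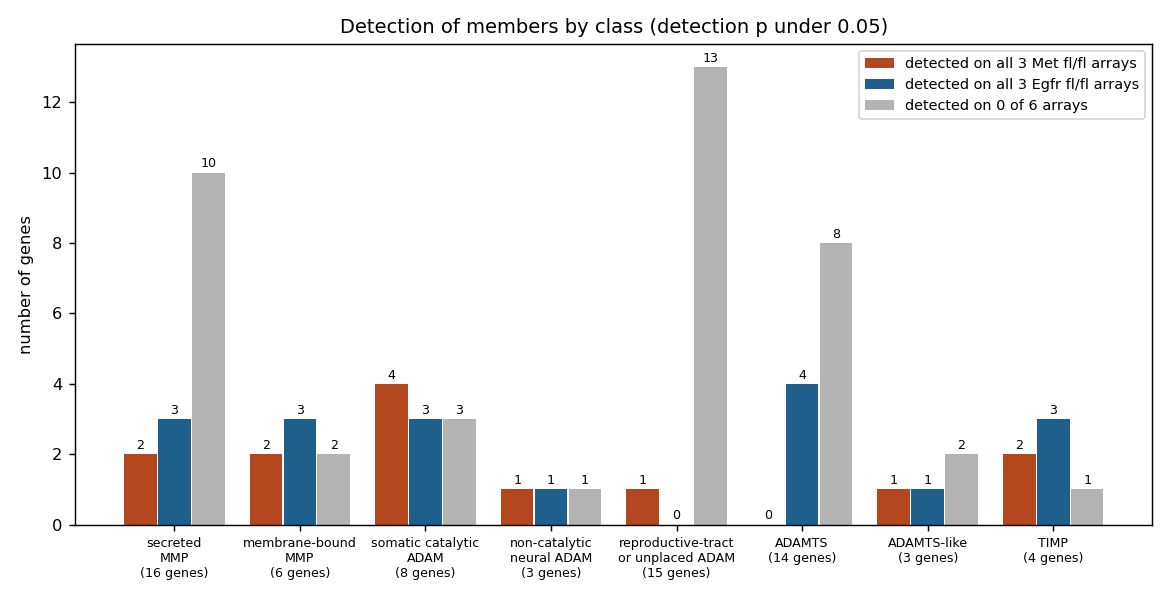
Number of member genes (y axis) by class (x axis) that were detected on all 3 Met fl/fl arrays, on all 3 Egfr fl/fl arrays, or on 0 of 6 arrays, at a detection p under 0.05. The tallest bar is the 13 of 15 reproductive-tract or unplaced ADAM genes with no detection, and the ADAMTS class has 0 genes against 4 in the detected bars.

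Members detected on 0 of 6 arrays spanned every class. Among secreted MMPs they were the gelatinase Mmp2, the collagenases Mmp1b and Mmp8, the stromelysins Mmp3 and Mmp10, the matrilysin Mmp7, the macrophage elastase Mmp12, and Mmp20, Mmp21 and Mmp27. Membrane-bound Mmp16 and Mmp23 were undetected as well. Of the ADAM genes expressed outside the reproductive tract, Adam8, Adam28 and Adam33 were not detected, nor was the neural Adam11. In the class of reproductive-tract or unplaced ADAM genes these were Adam1b, Adam2, Adam3, Adam5, Adam6, Adam7, Adam21, Adam24, Adam25, Adam26a, Adam30, Adam32 and Adam39. The ADAMTS genes without detection were Adamts3, Adamts8, Adamts12, Adamts16, Adamts17, Adamts18, Adamts19 and Adamts20, with Adamtsl2 and Adamtsl5 of the ADAMTS-like genes and Timp4 of the inhibitors. Over the 64 probes that no array detected, the normalized log2 intensity lay between 4.34 and 4.94, the band of the background.

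The comparison between the genotypes asks which members differ between the 2 kinds of control cell. Genes were read from their brightest probe among those detected on at least 3 arrays, which left 23 member genes of 69, and differences were taken as Met fl/fl less Egfr fl/fl, so that a positive one means higher in Met fl/fl. In the limma fit over all probes, 12 of the 23 passed an adjusted p of 0.05, where 41.4% of all 8549 tested genes passed, and the members' share was 52.2%. Mmp14, Timp1, Adam12 and Adam4 were higher in Met fl/fl. Adamts15, Adamtsl4, Mmp11, Timp3, Adamts2, Adamts1, Adam9 and Timp2 were lower in Met fl/fl. The background in these directions was 22.8% and 18.6% of genes. Of the 23, 5 passed the filter through detection in 1 genotype only, as did 372 of all 8549 tested genes. These are Adam12, Adam4, Adamts1, Adamts2 and Mmp11, for which the filter favoured a difference in that direction. Adamts15 and Timp3, detected on 1 Met fl/fl array and all 3 Egfr fl/fl arrays, would likewise not have passed without the Egfr fl/fl arrays. In such bulk samples fewer cells of a type and less RNA per cell cannot be told apart.

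At a fitted difference of 2-fold or more, 0 members were higher in Met fl/fl and 5 were lower there, where 15.7% of all tested genes passed with such a difference, 7.71% higher and 8.01% lower. The count of 5 moved with the offset that is added before taking logs, which shrinks the differences of dim probes. With an offset of 50 in place of 16, alone or with normexp on the intensities alone, 3 were lower by 2-fold or more, Adamts15, Adamtsl4 and Mmp11, while Timp3 (-0.92) and Adamts2 (-0.62, both with the offset alone) were not. There were 6, Adamts1 being added, without Egfr fl/fl replicate 3, and likewise without Met fl/fl replicate 2, with median scaling, with array weights and with the robust control estimate. Where detection at p under 0.01 was required of all 6 arrays there were 0, since none of the 5 was then tested. Without Egfr fl/fl replicate 3 the members called were 5 higher and 8 lower, Adam17 being added. Under median scaling instead of quantile normalization, 2 were higher and 9 lower, and over all genes the split was 847 higher and 1735 lower, against 1953 and 1588. That scaling put the median difference of all tested genes at -0.13, against 0.07 with quantile normalization. The median over the 23 members was -0.06. In 13 of the 23 members the ranges of the genotypes were separate, as they were in 52% of all tested genes. For a single probe, an exact two-sided permutation test of 3 arrays against 3 cannot go below p = 0.1.

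**Figure D2:**
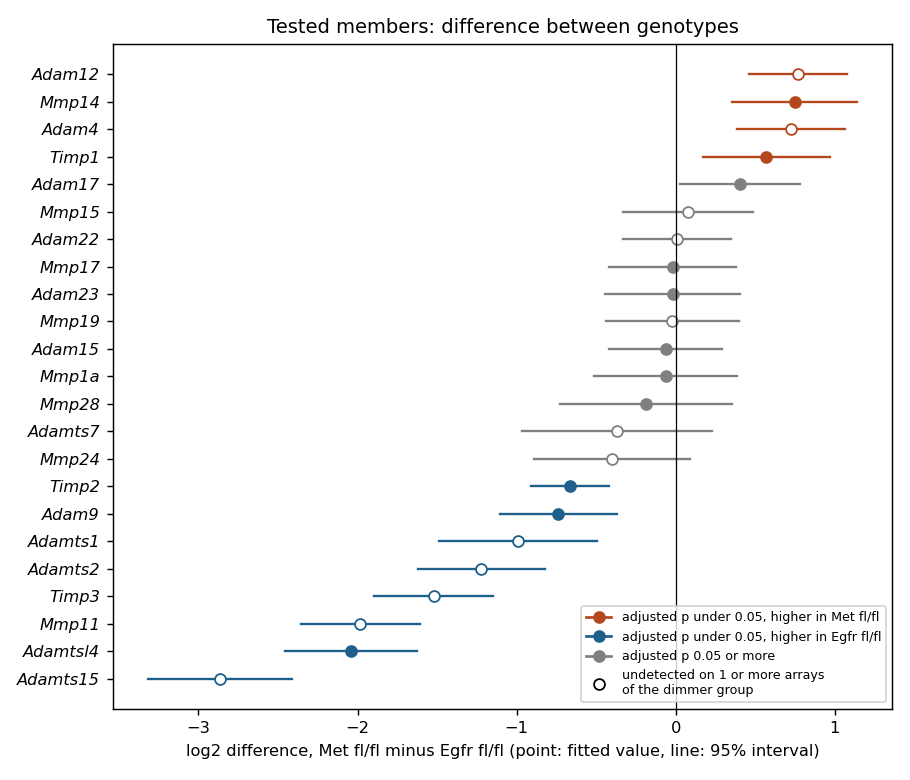
Log2 difference, Met fl/fl minus Egfr fl/fl (x axis), for the 23 tested member genes, with the fitted value as a point and its 95% interval as a line. Open points mark genes undetected on 1 or more arrays of the dimmer genotype, and the differences run from -2.86 for Adamts15 to 0.77 for Adam12.

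The promoters of the members with a fitted difference of 2-fold or more are shown because all 5 such members were lower in Met fl/fl. Of the 12 members called, 8 matched an entry by symbol in the RefSeq promoter table (build GRCm38.p6), and Adam12, Adam4, Adam9 and Adamts15 did not. Each sequence runs from 250 bases before the gene's start to 50 bases from it, read 5′ to 3′ along the gene. Capitals mark the GC box GGGCGG on either strand, a motif known to bind Sp family factors.
Adamts2, chr11:50601835-50602134, plus strand: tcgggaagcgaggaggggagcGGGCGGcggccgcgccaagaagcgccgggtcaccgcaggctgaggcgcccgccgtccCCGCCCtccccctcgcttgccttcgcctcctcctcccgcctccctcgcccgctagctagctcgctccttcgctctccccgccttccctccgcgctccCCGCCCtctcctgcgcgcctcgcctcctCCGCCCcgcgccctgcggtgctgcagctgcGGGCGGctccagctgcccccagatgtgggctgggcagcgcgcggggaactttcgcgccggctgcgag
Adamtsl4, chr3:95687868-95688167, minus strand: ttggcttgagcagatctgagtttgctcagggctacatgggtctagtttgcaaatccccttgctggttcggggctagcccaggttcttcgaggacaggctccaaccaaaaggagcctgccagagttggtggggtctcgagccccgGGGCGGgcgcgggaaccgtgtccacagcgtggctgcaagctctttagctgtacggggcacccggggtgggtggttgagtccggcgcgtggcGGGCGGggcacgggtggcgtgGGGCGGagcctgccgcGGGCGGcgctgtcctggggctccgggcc
Mmp11, chr10:75932453-75932752, minus strand: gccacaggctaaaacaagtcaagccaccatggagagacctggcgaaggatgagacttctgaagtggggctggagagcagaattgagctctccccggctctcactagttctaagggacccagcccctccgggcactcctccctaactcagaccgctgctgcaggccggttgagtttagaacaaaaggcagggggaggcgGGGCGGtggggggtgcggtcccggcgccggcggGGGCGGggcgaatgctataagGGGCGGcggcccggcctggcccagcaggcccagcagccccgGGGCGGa
Timp3, chr10:86300162-86300461, plus strand: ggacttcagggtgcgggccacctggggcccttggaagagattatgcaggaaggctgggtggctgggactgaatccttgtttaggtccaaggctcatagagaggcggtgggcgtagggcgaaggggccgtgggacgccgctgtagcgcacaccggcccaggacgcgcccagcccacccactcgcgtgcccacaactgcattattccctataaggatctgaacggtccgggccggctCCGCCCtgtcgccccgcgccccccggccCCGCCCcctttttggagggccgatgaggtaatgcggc
These hold 5, 4, 4 and 2 GC boxes in the order shown. By its first base, the match nearest the gene's start lies at position -17 in Adamts2, 7 in Adamtsl4, 3 in Mmp11 and 14 in Timp3. The other Timp3 match begins at -15, and its last base lies nearer the start. All 8 called members with an entry held at least 1 GC box, as did 35.7% of all 32851 promoters in the table and 64.1% of the promoters of tested genes. Timp1, Timp2, Mmp14 and Adamts1 held 1, 1, 2 and 3. The AP-1 site TGANTCA, searched on both strands, had no match in these 8 windows and at least 1 in 7.81% of all promoters and 5.19% of the promoters of tested genes. Neither motif overlaps the other, and both were chosen with the differences already known. A match describes the letters in this window and is not a site of binding.

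Among secreted MMPs only Mmp11 was called, of 4 tested. Mmp11 is a stromelysin that in tumours is made mostly by stromal cells. Its log2 intensity was 4.81, 4.67 and 4.73 on the Met fl/fl arrays, none of which detected it, and 6.60, 6.79 and 6.76 on the Egfr fl/fl arrays. The 3 Egfr fl/fl values lay close together and far above the background band. For a gene that was undetected on 1 or more arrays of the dimmer genotype the fold is given as a bound. Each dim array then enters at its lowest detected signal, or at the probe's own signal where that is higher. The mean of these is set against the bright mean. In every such fold, here and below, the words at least refer only to the undetected signal. They take no account of the spread between arrays or of the processing setting, so the bound is not a lower confidence limit. By that bound Mmp11 was at least 3.42-fold lower in Met fl/fl, with a fitted log2 difference of -1.98 ± 0.17 (SE) and an adjusted p of 1.40e-05. The bound is -1.77 in log2, and the interval of the fitted difference reached the smaller size of -1.61.

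The other tested secreted MMPs, Mmp1a, Mmp19 and Mmp28, did not pass. Mmp1a, a mouse counterpart of interstitial collagenase, read 6.08, 6.04 and 5.88 in Met fl/fl cells, against 5.85, 6.39 and 5.95 in Egfr fl/fl cells on its brighter probe, and the groups overlapped. Its other probe was detected on 2 Met fl/fl arrays only, and as Mmp1b is a close copy, whether the signal is that of Mmp1a was not tested. Mmp28, which epithelia express, averaged 5.29 ± 0.22 in Met fl/fl cells, against 5.48 ± 0.48 in Egfr fl/fl cells (SD, n = 3 each), with a difference of -0.19 (95% interval -0.73 to 0.36). Mmp19 exceeded the negative controls on 1 Met fl/fl and 2 Egfr fl/fl arrays and differed by -0.02 (95% interval -0.44 to 0.40). Mmp9, the gelatinase of neutrophils and macrophages, was detected on 1 array of each genotype, at log2 values of 4.75 to 4.99 in Met fl/fl and 4.68 to 4.95 in Egfr fl/fl. For the collagenase Mmp13, 1 of its 3 probes was detected on 1 array of each genotype, another on 2 Egfr fl/fl arrays and the remaining probe on none.

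Membrane-bound Mmp14 was strongly expressed in both genotypes. It cuts fibrillar collagen at the cell surface and, with Timp2, activates the precursor of Mmp2. Its log2 intensity was 11.79, 12.29 and 12.25 in Met fl/fl cells, against 11.33, 11.09 and 11.66 in Egfr fl/fl cells. Every Met fl/fl value exceeded every Egfr fl/fl value, with Met fl/fl replicate 1 and Egfr fl/fl replicate 3 lying closest. The difference was 0.75 ± 0.18 (SE), or 1.68-fold higher in Met fl/fl (adjusted p = 0.00763). It did not pass with median scaling, where it was 0.41 (adjusted p = 0.175), and it was 0.90 without Egfr fl/fl replicate 3. The probe for Mmp2 was detected on none of the 6 arrays.

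The other membrane-bound enzymes tested were dim and none passed. Mmp17, which is held in the membrane by a lipid anchor, averaged 5.64 ± 0.18 in Met fl/fl cells, against 5.65 ± 0.15 in Egfr fl/fl cells (SD, n = 3 each), with a 95% interval of the difference of -0.42 to 0.38. Mmp24 read 4.89, 5.41 and 5.61 in Met fl/fl cells, against 5.56, 5.59 and 5.96 in Egfr fl/fl cells, a difference of -0.40 (adjusted p = 0.175). The groups overlapped, and with median scaling the difference was -0.67 and passed (adjusted p = 0.0342). Mmp15 was detected on 2 Met fl/fl arrays and 1 Egfr fl/fl array and differed by 0.08 (95% interval -0.33 to 0.48).

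Of the 4 catalytic ADAMs tested outside the reproductive-tract class, Adam9 was lower and Adam12 higher in Met fl/fl, and Adam15 and Adam17 did not pass. Adam9, which cuts precursors of growth factors and cell adhesion proteins, read 9.58, 9.27 and 9.22 in Met fl/fl cells, against 10.27, 10.20 and 9.81 in Egfr fl/fl cells. The groups did not overlap, and Egfr fl/fl replicate 3 lay nearest to the Met fl/fl values. Adam9 was 1.67-fold lower in Met fl/fl (log2 difference -0.74 ± 0.16 SE, adjusted p = 0.00561), and the difference was -0.88 without that replicate. Adam12, which myoblasts and growing mesenchyme express, was near background: its values were 5.37, 5.38 and 5.31 in Met fl/fl, and 4.54, 4.62 and 4.59 on the Egfr fl/fl arrays, none of which detected it. The 3 values of each group fell within a narrow range, and Adam12 was at least 1.36-fold higher in the Met fl/fl cells (fitted difference 0.77 ± 0.14 SE, adjusted p = 0.00170).

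Adam17, the main sheddase of tumour necrosis factor and of several ligands of the epidermal growth factor receptor, read 8.66, 8.58 and 8.77 in Met fl/fl cells, against 8.04, 8.23 and 8.53 in Egfr fl/fl cells. All Met fl/fl values were above all Egfr fl/fl values, with Egfr fl/fl replicate 3 just under the lowest of them. The difference of 0.40 ± 0.17 (SE) did not pass (adjusted p = 0.0815). It passed without Egfr fl/fl replicate 3, at 0.54 (adjusted p = 0.00998), and with array weights, at 0.51 (adjusted p = 0.00309). Adam15, which binds integrins, averaged 8.74 ± 0.11 in Met fl/fl cells, against 8.81 ± 0.22 in Egfr fl/fl cells on its brighter probe (SD, n = 3 each), and the interval of the difference was -0.42 to 0.29. Its other tested probe differed by -0.10 (adjusted p = 0.781). Adam10, which cuts Notch receptors and cadherins, was detected by its probe on 0 of 3 Met fl/fl arrays and 1 of 3 Egfr fl/fl arrays, at log2 values of 4.66 to 4.85 in Met fl/fl and 4.58 to 4.94 in Egfr fl/fl, and was not tested.

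Of the non-catalytic ADAMs, which act in neural adhesion, Adam23 was detected on all arrays. It read 7.09, 6.80 and 7.26 in Met fl/fl cells, against 7.09, 7.08 and 7.04 in Egfr fl/fl cells, so that the Egfr fl/fl values lay inside the range of the others. Its relative Adam22 stayed near background on 1 Met fl/fl and 2 Egfr fl/fl arrays (difference 0.01, 95% interval -0.33 to 0.35), and its other 2 probes were undetected. Adam4, a gene of the testis, was detected by 1 probe on all 3 Met fl/fl arrays, at 5.23, 5.32 and 5.57, and on 0 of 3 Egfr fl/fl arrays, at 4.66, 4.63 and 4.65. That is at least 1.38-fold higher in the Met fl/fl cells (fitted difference 0.73 ± 0.15 SE, adjusted p = 0.00410). A further Adam4 probe was detected on 2 Met fl/fl arrays and 0 Egfr fl/fl arrays, and the remaining probe on none, so the 3 probes differ in detection. The means of these other probes were 4.97 and 4.81 in Met fl/fl, against 4.59 and 4.64 in Egfr fl/fl. Neither was tested, and on the last the groups overlapped. Adam29 was detected by 1 of its 3 probes on 1 Met fl/fl array.

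Of the 4 ADAMTS genes tested, 3 were called, all lower in Met fl/fl, beside 41.4% of all tested genes called and 18.6% called lower. All 4 passed the filter only with the Egfr fl/fl arrays, each of which detected them. Detection in Met fl/fl was on 0 arrays for Adamts1 and Adamts2, 1 for Adamts15 and 2 for Adamts7. The filter thus favoured lower values in Met fl/fl, and a direction of the class was not tested. Adamts15, a protease that cuts versican and aggrecan, had the largest fitted difference of any member. Its log2 intensity was 5.28, 4.85 and 4.89 in Met fl/fl, with detection on replicate 1 only, and 7.83, 8.06 and 7.72 in Egfr fl/fl. Every Egfr fl/fl array was more than 2 log2 units above every Met fl/fl array. By the bound Adamts15 was at least 7.02-fold lower in Met fl/fl (fitted difference -2.86 ± 0.20 SE, adjusted p = 3.99e-06). The bound is -2.81 in log2, and the interval of the fitted difference reached the smaller size of -2.41. With normexp on the intensities alone and an offset of 50 the fitted difference was -1.85.

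Adamts2, which removes the amino-terminal propeptide of fibrillar procollagens, read 4.54, 4.42 and 4.48 on the Met fl/fl arrays, none of which detected it, and 5.68, 5.42 and 6.01 in Egfr fl/fl. It was at least 1.69-fold lower in Met fl/fl (fitted difference -1.22 ± 0.18 SE, adjusted p = 0.000514). Another Adamts2 probe was detected on 2 Egfr fl/fl arrays, where the groups overlapped, and the remaining probe on none. Adamts1, which cuts versican and aggrecan and restrains vessel growth, read 4.57, 4.75 and 4.58 in Met fl/fl without detection, and 5.91, 5.87 and 5.09 in Egfr fl/fl. Egfr fl/fl replicate 3 was far below the other 2 and close to background. The bound was at least 1.60-fold lower in Met fl/fl (fitted difference -0.99 ± 0.22 SE, adjusted p = 0.00605). Without replicate 3 the fitted difference was -1.26, and with the deposited normalized values it was -0.96 with a wider SE of 0.38, and the call was lost (adjusted p = 0.103). Its other probe was undetected.

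Adamts7, which cuts a cartilage matrix protein, averaged 5.31 ± 0.41 in Met fl/fl cells, against 5.69 ± 0.44 in Egfr fl/fl cells (SD, n = 3 each) and did not pass (difference -0.37, 95% interval -0.97 to 0.23). The ranges of the groups overlapped. Adamts13, the protease of von Willebrand factor that stellate cells make in liver, was detected on 1 array of each genotype. Adamts4, an aggrecanase, was detected on 1 Egfr fl/fl array. Adamtsl4, which binds fibrillin microfibrils, was detected on all 6 arrays, at 5.27, 5.35 and 5.58 in Met fl/fl cells, against 7.33, 7.53 and 7.46 in Egfr fl/fl cells. The groups were widely separated, and Adamtsl4 was 4.12-fold lower in Met fl/fl (log2 difference -2.04 ± 0.19 SE, adjusted p = 2.38e-05). Its log2 difference lay between -2.60 with the deposited normalized values and -1.30 with normexp on the intensities alone and an offset of 50.

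The inhibitors did not move as a group. Timp1, an inhibitor of most secreted MMPs, was higher in Met fl/fl, while Timp2 and Timp3 were lower. Timp1 read 9.48, 9.15 and 9.14 in Met fl/fl cells, against 8.95, 8.72 and 8.39 in Egfr fl/fl cells on its brighter probe, a 1.48-fold difference (log2 0.57 ± 0.18 SE, adjusted p = 0.0284). Its other probe gave 0.51 (adjusted p = 0.0288), so both probes passed. The Timp1 call was lost in 6 of 18 alternative settings, among them median scaling (0.38, adjusted p = 0.329), the deposited normalized values (0.59, adjusted p = 0.0510) and the removal of any Met fl/fl replicate (adjusted p 0.0577 to 0.0940) or of Egfr fl/fl replicate 2 (adjusted p = 0.0614).

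Timp2, which both blocks MMPs and helps Mmp14 to activate the precursor of Mmp2, was 1.59-fold lower in Met fl/fl. Its values were 10.75, 10.71 and 10.60 in Met fl/fl cells, against 11.31, 11.33 and 11.41 in Egfr fl/fl cells, with the smallest spread among the strongly expressed members called (difference -0.67 ± 0.11 SE, adjusted p = 0.00110). Timp3 binds to the matrix and also inhibits Adam17 and ADAMTS proteases. It read 4.92, 4.92 and 4.98 in Met fl/fl, with detection on replicate 3 only, and 6.51, 6.57 and 6.32 in Egfr fl/fl. All Egfr fl/fl arrays were clear of the background, and Timp3 was at least 2.84-fold lower in Met fl/fl (fitted difference -1.52 ± 0.17 SE, adjusted p = 8.29e-05). Its other probe was not detected on any array, nor was the probe of Timp4.

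**Figure D3:**
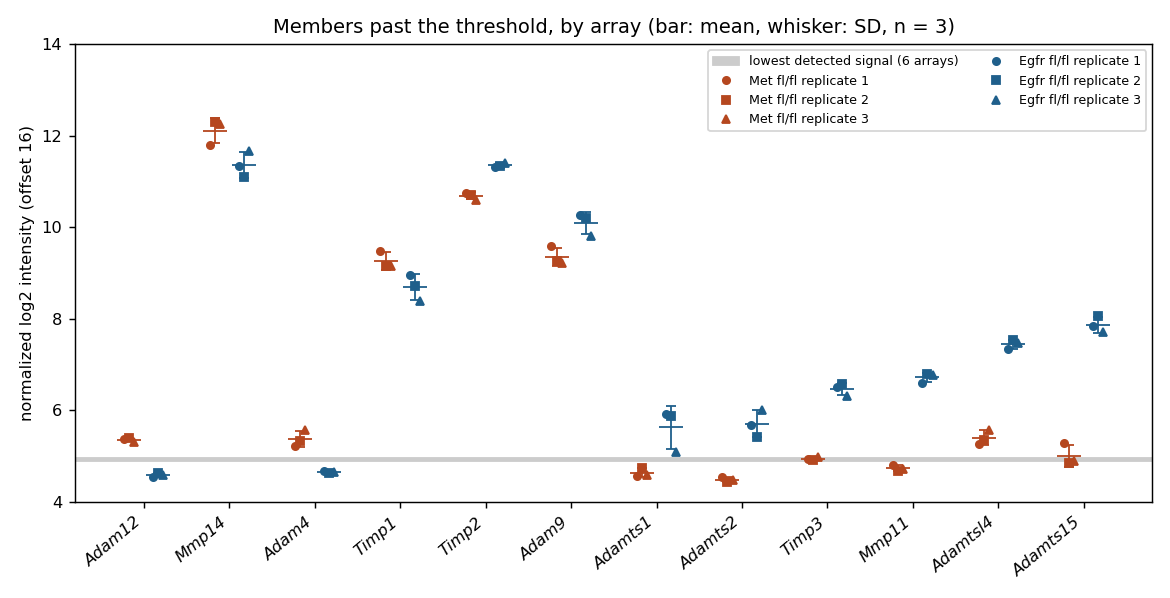
Normalized log2 intensity (y axis) on each array for the 12 member genes past the threshold (x axis, from the highest to the lowest difference), Met fl/fl in orange left of Egfr fl/fl in blue, with the mean as a bar and the SD as a whisker (n = 3). The grey band marks the lowest detected signal on the 6 arrays, 4.90 to 4.95, and Met fl/fl values of Adamts1, Adamts2 and Mmp11 and Egfr fl/fl values of Adam12 and Adam4 lie below it.

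Several of the members lower in Met fl/fl are also made by fibroblasts, so markers of other cell types are given beside them. Of 12 stellate cell and fibroblast markers on the array, 2 could be tested and both were lower in Met fl/fl. Over all tested genes 41.4% were called and 18.6% were called lower. Both markers, Acta2 and Dcn, passed the filter only through the Egfr fl/fl arrays, so the filter favoured lower values in Met fl/fl. Smooth muscle actin Acta2 was at least 17.7-fold lower, with 9.09 ± 0.66 in Egfr fl/fl (SD, n = 3) and no detection in Met fl/fl, and the proteoglycan Dcn at least 1.35-fold lower. The summed normalized intensity of the list was 104 to 116 units in Met fl/fl and 424 to 859 units in Egfr fl/fl. In Egfr fl/fl that sum was mostly Acta2, since Dcn averaged only 5.38 there and no other listed gene was detected on all 3 arrays. By the probes read, 7 of the 12 were detected on 0 of 6 arrays, Col1a1, Col3a1, Pdgfra, Lrat and Lum among them. Col1a2 was detected on 1 Met fl/fl array, Pdgfrb on 1 Egfr fl/fl array and Des on 1 array of each genotype. Of 12 macrophage markers, 2 could be tested. Csf1r was called, at least 1.47-fold lower in Met fl/fl, and it too passed the filter only through the Egfr fl/fl arrays. Marco, detected on 2 Met fl/fl arrays and 1 Egfr fl/fl array, did not pass (adjusted p = 0.288). Cd68 was detected on 1 Met fl/fl array. The other 9, Clec4f, Adgre1 and Ptprc among them, were detected on 0 of 6. The part of such cells in the differences was not tested.

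Genes that surround these proteases in their pathway were read from lists chosen with earlier results of these data known. Beside the counts of each list stand 41.4% of all tested genes called, 22.8% higher and 18.6% lower in Met fl/fl. Of 20 listed activators and membrane partners, 9 were tested, 2 higher and 2 lower in Met fl/fl, with a median difference of 0.38 beside 0.07 for all tested genes. The proprotein convertases Pcsk7 (1.82-fold) and Furin (1.43-fold, adjusted p = 0.0121), which remove the propeptides of membrane-bound MMPs and ADAMs, were higher in Met fl/fl. Plaur, the receptor of urokinase, was 2.49-fold lower and Tspan17, a tetraspanin that accompanies Adam10, 2.20-fold lower in Met fl/fl. The iRhom proteins Rhbdf1 and Rhbdf2, which carry Adam17 to the cell surface, did not pass (differences -0.11 and -0.26). Among other inhibitors 1 of 5 tested passed, Spint1, which blocks membrane serine proteases and was at least 1.99-fold higher in the Met fl/fl cells. Reck, a membrane inhibitor of MMPs, was detected on 2 Met fl/fl arrays and 1 Egfr fl/fl array (difference 0.08, adjusted p = 0.693).

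Of the other metzincin proteases 2 were tested. Bmp1, which trims procollagens at the carboxyl end, was 1.46-fold higher in Met fl/fl (adjusted p = 0.0240), and the meprin Mep1b was at least 2.28-fold lower. Among AP-1, ETS and RUNX factors, which are known to bind promoters of many MMP genes, 6 of 10 tested were higher and 4 lower in Met fl/fl, with a median of 0.51. Over all tested genes 22.8% were higher and 18.6% lower. Junb (2.19-fold), Ets2 (1.66-fold) and Ets1 (1.62-fold) were higher. Jun was 2.10-fold, Jund 1.95-fold and Runx1 at least 1.86-fold lower.

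Of 42 listed proteins that ADAMs shed, 27 were tested, 4 of them higher and 17 lower in Met fl/fl, with a median of -0.74. Over all tested genes 22.8% were higher and 18.6% lower, and this list too was chosen with earlier results known. The lower ones were led by the chemokine Cxcl16 (8.15-fold) and the adhesion molecules Icam1 (6.40-fold) and Vcam1 (6.15-fold). Hbegf, a precursor of a ligand of the epidermal growth factor receptor, was 1.40-fold lower (adjusted p = 0.0327), and Areg, another such precursor, at least 1.61-fold lower (adjusted p = 0.0132). Of the other such precursors listed, Tgfa did not pass (difference -0.31, adjusted p = 0.121). Ereg, Btc, Epgn and Egf were detected on 0 of 6 arrays by the probes read. Notch2 (at least 5.12-fold), Notch1 (1.95-fold) and Fas (1.62-fold) were higher in Met fl/fl.

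Matrix proteins that these enzymes cut moved in both directions. Of 19 tested, 6 were higher and 7 lower in Met fl/fl, beside 22.8% and 18.6% of all tested genes, with a median of -0.15. The glycoprotein Sparc (5.54-fold), the laminin chain Lamb3 (4.61-fold) and the anchoring fibril collagen Col7a1 (at least 4.16-fold) were higher. Tenascin Tnc was at least 19.4-fold lower, with 9.22 ± 0.23 in Egfr fl/fl (SD, n = 3) and no detection in Met fl/fl, and the basement membrane genes Col4a2 (2.06-fold) and Lamb2 (2.05-fold) were lower too. Versican and aggrecan, which Adamts1 and Adamts15 cut, were detected on 0 of 6 arrays by the probes read, as was Col1a1, whose procollagen Adamts2 trims.

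The differences of the 12 called members kept their direction in each setting that tested the gene, and 8 of them were too dim to be tested where detection at p under 0.01 was required of all 6 arrays. The adjusted p stayed under 0.05 for 9 of the 12 in each setting that tested the gene, the exceptions being Mmp14, Timp1 and Adamts1.

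**Figure D4:**
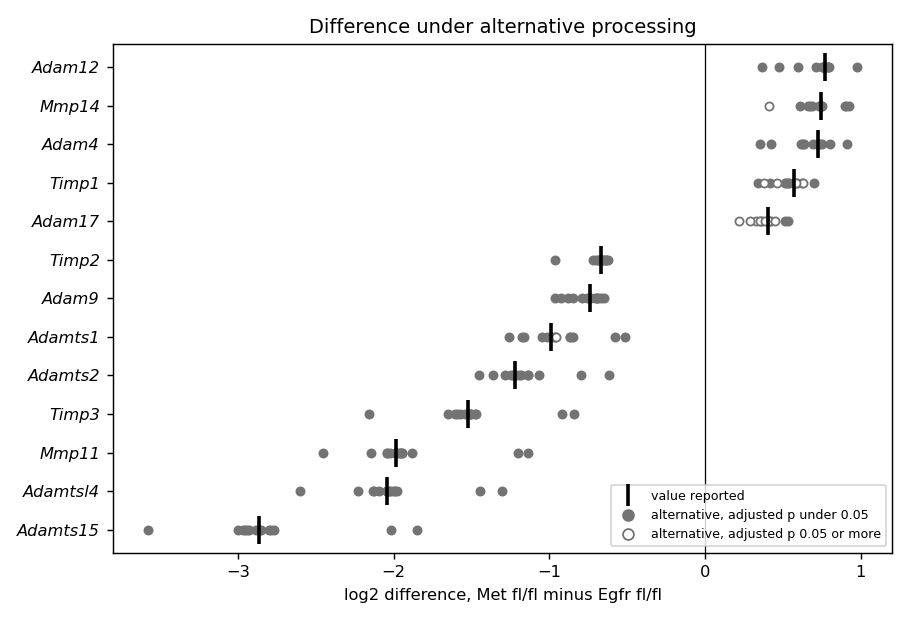
Log2 difference, Met fl/fl minus Egfr fl/fl (x axis), of the 12 called members and Adam17 as reported (black bar) and under the alternative settings (points, filled where the adjusted p is under 0.05). No point crosses 0, and open points appear for Mmp14, Timp1, Adamts1 and Adam17.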

How the data were processed

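Transcript levels of 6 samples, 3 Met fl/fl and 3 Egfr fl/fl, were measured on 1-colour Illumina arrays. Groups and replicate numbers came from the sample titles. The software was GenomeStudio 2011.1, per the submitters' processing notes. Neither the model of array nor its annotation release is named in the labels. The deposited table gave a non-normalized intensity per probe, below 0 for 26.9% to 31.1% of probes on an array, so a background had been subtracted. Beside it stood a detection p-value, named per the file headers, in steps that correspond to 798 negative controls. The deposited matrix of normalized intensity values, quantile normalized to judge by its shared quartiles, served as an alternative.

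Normexp background correction took the moments of the negative controls from the deposited detection p-values. After adding 16 units to each value, log2 intensities were quantile normalized (limma 3.58.1, R 4.3.3). The offset understates changes of dim probes, and quantile normalization removes differences in total RNA. Of 25697 probes, 11578 were detected (p under 0.05) on 3 arrays or more and entered lmFit and a trended eBayes, and p-values were adjusted over all of them by Benjamini-Hochberg at 0.05. A gene was read from its brightest tested probe. The fit was tested on simulated data. Symbols were those of the table, updated for other genes through RefSeq synonyms, and 68 of 69 member symbols are current. The members, lists and motifs were chosen with earlier results of these data known. The members named were those past the threshold, those detected on all arrays of 1 genotype and none of the other, and Adam10, Adam17, Mmp2, Mmp9, Mmp14 and Timp1 to Timp4; other members are named with values where their class is described. From each list up to 3 genes in each direction past the threshold were named, by size. Hbegf, Areg, Tgfa, Ttr, Rhbdf1, Rhbdf2, Reck and undetected genes were added after their values were seen.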

Additional observations from a re-analysis of the deposited data

How the results depend on the processing

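As reported, 4 members were higher and 8 lower in Met fl/fl. With 1 replicate left out these counts were 3 to 5 and 8 to 8. With median scaling 2 were higher, and with a detection p under 0.01 on all 6 arrays 2 were higher and 2 lower of 9 tested, since that filter drops the dim members. The same replicate numbers did not pair the samples (deviations correlated at 0.24, -0.15 and 0.32, and 1 of 3 correlated best with its own number), and a fit with the replicate block gave 4 and 8. Over all genes 3541 were called, between 2542 and 4385 with 1 replicate left out, and 5255 with array weights. Of the 11 members that did not pass, 8 changed sign in some setting, and the cause was not tested, while Adam17, Adamts7 and Mmp24 did not change sign. Median scaling gave -0.039 for Adam22 and -0.062 for Mmp15. The deposited normalized values gave -0.029 for Mmp15 and 0.12 for Mmp19, and no value for Adam22, which lay at the floor on all arrays. Array weights gave 0.082 for Adam15, -0.058 for Adam22, 0.034 for Mmp17, 0.078 for Mmp19 and 0.0071 for Mmp1a. With 1 replicate left out the differences ran between -0.14 and 0.064 for Adam15, -0.098 and 0.079 for Adam22, -0.13 and 0.11 for Adam23, -0.033 and 0.23 for Mmp15, -0.12 and 0.041 for Mmp17, -0.22 and 0.079 for Mmp19, -0.17 and 0.10 for Mmp1a, and -0.45 and 0.022 for Mmp28. Signal over background limits what could be seen, since 64 of 99 member probes never exceeded the negative controls.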
